A study of Mus musculus with 2 samples.

Results

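The genes of 9 leukocyte adhesion molecules were measured in M-MDSCs, the monocytic kind of myeloid-derived suppressor cell, taken from 4T1 tumours of female BABL/c mice. They encode the integrin subunits Itgam, Itgax, Itgal, Itga4, Itgb1, Itgb2 and Itgb7, the selectin ligand Selplg and the hyaluronan receptor Cd44, and they were chosen by name from 20653 genes that the array's probes could be matched to. Every non-control probe with a RefSeq transcript of these genes was taken, which gave 18 of 39413 probes. All mice had been injected under the skin with 1000000 cells of 4T1, a mouse mammary carcinoma line, after a day of starvation. For the next 16 days the NSD (normal-salt diet) group received chow with 0.4% NaCl and tap water, and the HSD (high-salt diet) group chow with 4% NaCl and water with 1% NaCl. The cells were retained on magnetic columns after staining for Gr-1 or Ly-6G, equal numbers of cells were pooled within each diet group, and the pooled RNA was labelled with Cy3 and hybridised to 1 Agilent mouse array per diet. Each group of mice is therefore represented by 1 value per probe, without a spread between animals, so the diets were compared by size of difference with no test. In pooled RNA, fewer cells of a type and less RNA per cell cannot be told apart.

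Integrins are receptors of 1 alpha and 1 beta chain that hold leukocytes to vessel walls, matrix and other cells. The beta chain Itgb2 (CD18) pairs with Itgal to form LFA-1, with Itgam (CD11b) to form Mac-1 and with Itgax (CD11c) to form complement receptor 4, whereas Itga4 pairs with Itgb1 to form VLA-4 and with Itgb7 to form a receptor for homing to the gut. Selplg (PSGL-1) is the leukocyte ligand on which cells roll along P-selectin, and Cd44 binds hyaluronan. CD11b is also one of the surface proteins by which M-MDSCs are defined, and the study identified them as positive for CD11b and Ly-6C.

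Counted by gene, the adhesion members passed 1.5-fold between the diets about as often as all genes did. Of the 18 probes, 1 was raised by 1.5-fold or more under HSD and 1 was lowered by as much, that is 5.56% in each direction, against 10.2% and 8.91% of all 29628 probes that stood well above background under either diet. Counted by the brightest probe of each gene, Itgax was the higher gene and Itga4 the lower gene, while 9.86% of all 16312 usable genes were higher and 10.3% lower. By probe the members' shares were below the background in this setting, but each rests on 1 probe. By gene, 1 of 9 in each direction was close to the background. Of 10274 probes at least as bright as the dimmest of the members' brightest probes, 14.4% passed 1.5-fold either way. The 11.1% of all 18 member probes that did so is not a like share. It counts member probes dimmer than this limit, such as a dim probe of Itga4, and none of those passed. With the normexp background correction 1 member probe still passed in each direction. The counts over all probes then fell to 961 and 923, so the members' shares were not below the background there. Among the calls over all probes 53.4% were in the higher direction, or 42.4% with cyclic loess between the arrays. All 18 probes stood well above background under NSD and under HSD, none was saturated and none was flagged, and each was printed in 1 spot per array. Signals are given in intensity units with the error that the scanner software assigns to a spot. Fold changes are log2 values of HSD minus NSD after each array was scaled by its 75th percentile, 252 units for NSD and 233 for HSD, and their errors combine those of both spots. That error, about 0.20 for most members, covers the measurement of an array and not the mice.

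**Figure D1:**
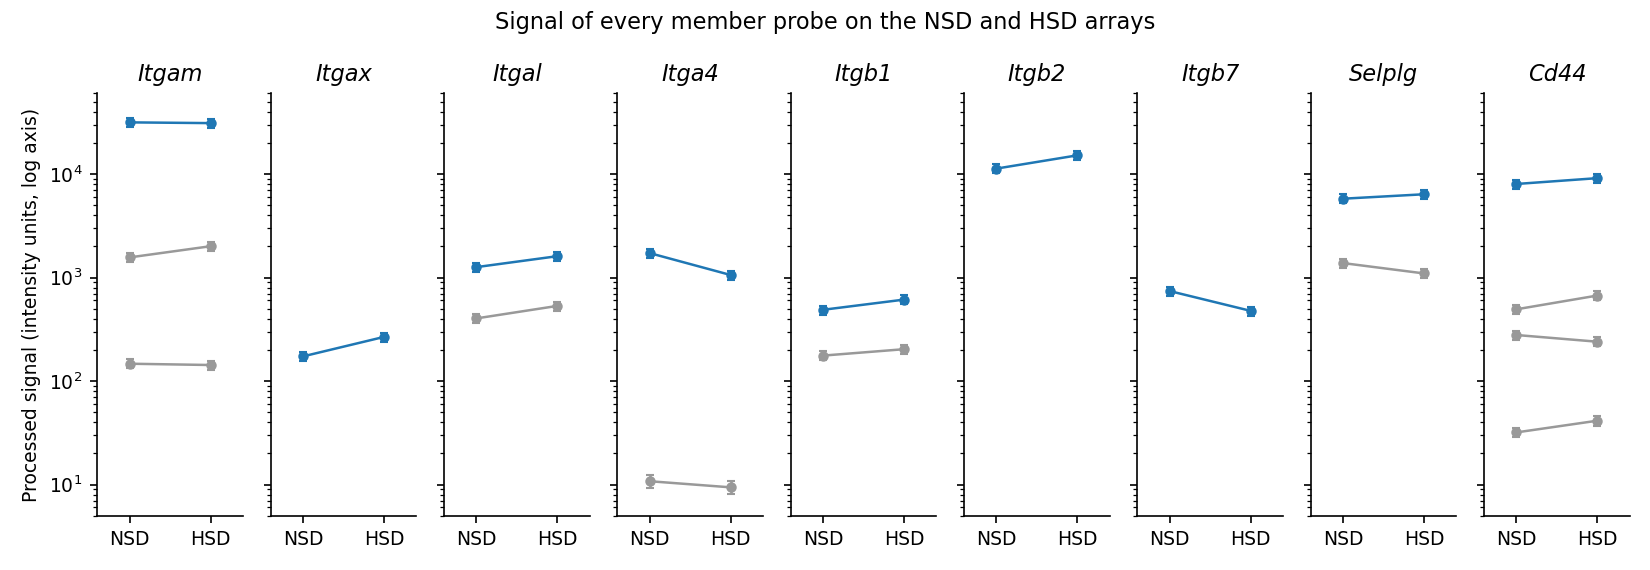
Processed signal of each member probe (intensity units, log axis) on the NSD and the HSD array, before scaling between the arrays. Blue marks the brightest probe of a gene, grey its other probes, and bars show the software's error of the spot, here mostly smaller than the symbol. Itgax goes up, Itga4 and Itgb7 go down, and the brightest Itgam probe stays nearly level.

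Of the beta chains, Itgb2 and Itgb1 had higher values under HSD and Itgb7 lower ones, none of them by 1.5-fold. Itgb2, the shared chain of the CD11 integrins, read 11282 ± 1128 units under NSD and 15155 ± 1515 under HSD. This is 1.45-fold more after scaling (log2 fold change 0.54 ± 0.20), and 89.3% of the 27236 probes measured on both arrays had lower values. The brighter probe of Itgb1 gave 487.8 and 611.8 units and the other 176.0 and 203.0. Both probes of Itgb1, the chain used by most matrix receptors, thus pointed the same way, with log2 fold changes of 0.44 ± 0.20 and 0.32 ± 0.20. Itgb7 read 740 ± 74.0 units under NSD and 476 ± 47.6 under HSD. Its log2 fold change of −0.52 ± 0.20, equal to a 1.44-fold drop, lay below that of all but 9.54% of the probes. With the values that the authors normalized it was −0.59, past 1.5-fold, and with the normexp background correction −0.39.

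Among the alpha chains that pair with Itgb2, Itgax stood highest in log2 fold change and Itgam lowest, by the brightest probe of each. Itgax, used as a marker of dendritic cells but also carried by macrophages and activated monocytes, was measured by 1 probe, at 173 ± 17.3 units under NSD and 267 ± 26.7 under HSD. After scaling this was 1.67-fold more, a log2 fold change of 0.74 ± 0.20 that lay between 0.65 and 0.77 under the 7 other settings tried, past 1.5-fold in each. Itgal, the LFA-1 chain that binds ICAM molecules, had 2 probes. The brighter gave 1260 and 1608 units and the other 402.6 and 531.7, with log2 fold changes of 0.47 ± 0.20 and 0.52 ± 0.20, so both were higher and neither reached 1.5-fold. Itgam had 3 probes, and the brightest had nearly the same signal under NSD, 31564 ± 3156, as under HSD, 31043 ± 3104. Its log2 fold change was 0.09 ± 0.20, within the error of the spots. The sign of this value depended on the scaling, with −0.05 under cyclic loess and 0.00 under quantile normalization. The second probe of Itgam gave 1565 and 2007 units (log2 fold change 0.47 ± 0.20), short of 1.5-fold, and the third gave 147 and 143 (log2 fold change 0.07 ± 0.20).

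Itgal, Itgam and Itgax lie on chromosome 7 in this order. The log2 fold change was 0.74 ± 0.20 for Itgax and 0.09 ± 0.20 for the brightest Itgam probe, but 0.47 ± 0.20 for the second Itgam probe. Whether the genes differ in their response was not tested. The upstream sequences of Itgam and Itgax are shown. Each is the 250 bases before the annotated start of the gene, written 5′ to 3′ on the gene's strand, from RefSeq on mouse assembly GRCm38.p6. Capitals mark matches, on either strand, to 4 short motifs of factors known from myeloid cells, housekeeping promoters and the salt response, namely GAGGAA for PU.1, TGTGGT for RUNX factors, GGGCGG for the GC box of Sp1 and TGGAAA for the core of NFAT5 sites. No matches to different motifs overlapped. The Itgam window is chr7:128062390-128062639 on the plus strand and the Itgax window chr7:128129300-128129549 on the plus strand.
Itgam: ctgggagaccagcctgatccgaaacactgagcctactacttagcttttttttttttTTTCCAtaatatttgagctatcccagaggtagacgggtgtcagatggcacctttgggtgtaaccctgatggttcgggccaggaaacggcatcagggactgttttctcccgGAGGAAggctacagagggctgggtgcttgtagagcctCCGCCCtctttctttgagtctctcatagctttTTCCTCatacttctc
Itgax: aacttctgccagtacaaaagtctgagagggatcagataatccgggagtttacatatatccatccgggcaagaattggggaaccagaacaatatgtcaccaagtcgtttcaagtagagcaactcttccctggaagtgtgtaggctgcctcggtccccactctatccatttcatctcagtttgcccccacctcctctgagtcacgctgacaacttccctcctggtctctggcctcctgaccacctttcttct
The Itgam window holds 2 matches to the PU.1 letters, 1 to the GC box and 1 to the NFAT5 core, while none of the 4 motifs is found in the Itgax window. Over all 32851 promoter windows of this length, 23.3% hold the PU.1 letters, 14% the RUNX letters, 32.7% the GC box and 18.6% the NFAT5 core. A match is a description of letters and not of a bound site. Of the 9 genes, 6 had an upstream window in the table used here, and Itgal, Itgb2 and Selplg had none. The Itgb1 window, not shown, holds 1 match each to the PU.1 letters, the GC box and the NFAT5 core. That of Cd44, not shown either, holds 2 matches to the PU.1 letters.

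**Figure D2:**
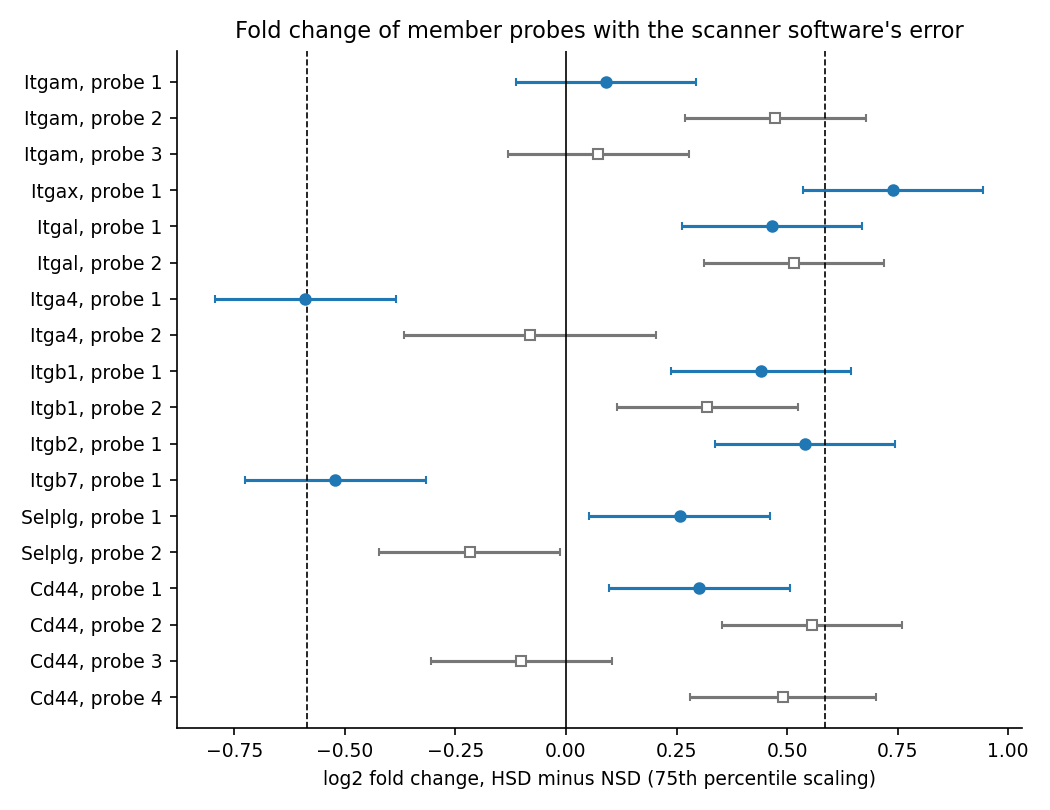
Log2 fold change (HSD minus NSD) of the 18 member probes, numbered from the brightest within a gene. Filled circles are the brightest probes, open squares the others, bars the software's error of the difference, and dashed lines 1.5-fold. Itgax lies past the upper line and Itga4 just past the lower one, and the second Itga4 probe has a bar that crosses 0.

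Itga4 and Itgb7, the chains of the gut homing receptor, were the members whose brightest probes had log2 fold changes below 0 as reported. Itga4, which also makes VLA-4, the receptor for VCAM-1 on inflamed endothelium, fell from 1722 ± 172 units under NSD to 1058 ± 106 under HSD. The log2 fold change of −0.59 ± 0.20, a scaled level of 0.665 times that under NSD, lies just past the limit of 1.5-fold, which is 0.58 on the log2 scale. It stayed between −0.58 and −0.68 under the 7 other settings and fell short of 1.5-fold with scaling on the median. The other probe of Itga4 was dim, at 10.8 and 9.39 units, and had a log2 fold change of −0.08 ± 0.29. The median over the probes of Itga4 was −0.34. Members that fell just short of the limit were Cd44 by its second probe, at 0.56, Itgb2 at 0.54 and Itgb7 at −0.52.

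The upstream windows of Itga4 and Itgb7, the chains of the gut homing receptor, are shown as well, with the same motifs in capitals. They are chr2:79255176-79255425 on the plus strand for Itga4 and chr15:102231936-102232185 on the minus strand for Itgb7.
Itga4: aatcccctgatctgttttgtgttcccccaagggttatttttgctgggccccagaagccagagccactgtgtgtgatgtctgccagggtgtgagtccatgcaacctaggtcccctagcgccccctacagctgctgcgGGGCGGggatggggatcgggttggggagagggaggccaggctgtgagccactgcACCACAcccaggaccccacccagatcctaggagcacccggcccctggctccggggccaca
Itgb7: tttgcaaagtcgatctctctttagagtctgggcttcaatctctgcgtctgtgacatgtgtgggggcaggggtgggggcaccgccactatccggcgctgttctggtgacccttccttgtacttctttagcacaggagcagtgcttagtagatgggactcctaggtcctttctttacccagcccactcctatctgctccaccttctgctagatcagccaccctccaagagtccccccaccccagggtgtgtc
The Itga4 window holds 1 match to the GC box and 1 to the RUNX letters, and the Itgb7 window holds none of the 4 motifs. They share no motif of those searched.

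The subunits of a receptor can be set side by side by their fold changes, here those of the brightest probes. They cannot be compared by their levels, since signals of different probes are not on a common scale. For VLA-4 the chains went apart, −0.59 for Itga4 and 0.44 for Itgb1, and the difference of alpha minus beta was −1.03 ± 0.29. For the receptor of Itga4 and Itgb7 the values lay close together, with a difference of −0.07 ± 0.29. Among the receptors with Itgb2, the difference of alpha minus beta was 0.20 ± 0.29 for Itgax, −0.07 ± 0.29 for Itgal and −0.45 ± 0.29 for Itgam. These differences depend on the probe. The second Itgam probe had a log2 fold change of 0.47, near the 0.54 of Itgb2, and the dim probe of Itga4 had −0.08. The arrays measure transcripts and say nothing of how much receptor reached the cell surface.

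Selplg and Cd44 had probes of both signs. The brighter probe of Selplg gave 5775 ± 578 units under NSD and 6375 ± 638 under HSD, for which the log2 fold change was 0.26 ± 0.20. The other gave 1379 ± 138 and 1095 ± 110, a log2 fold change of −0.22 ± 0.20, so that Selplg has no direction on which its probes concur. For Cd44, 3 of 4 probes were higher in the HSD group, and none reached 1.5-fold. The brightest probe of Cd44 gave 8014 ± 801 and 9126 ± 913 units, with a log2 fold change of 0.30 ± 0.20. The second gave 493 and 670 (0.56 ± 0.20) and the dimmest 31.9 and 41.4 (0.49 ± 0.21). The third Cd44 probe gave 278 and 240, with a log2 fold change of −0.10 ± 0.20. Cd44 is known for transcripts with variable exons, and all 4 probes carry the same transcript identifier, so they could not be assigned to variants. The log2 fold changes of the Cd44 probes spanned 0.66, and 25.4% of the 67 genes with as many measured probes spanned at least as much. The 2 Selplg probes spanned 0.47, as wide as or wider in 20.3% of 3087 genes with 2 probes, and the 2 Itga4 probes 0.51, in 18.6%.

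**Figure D3:**
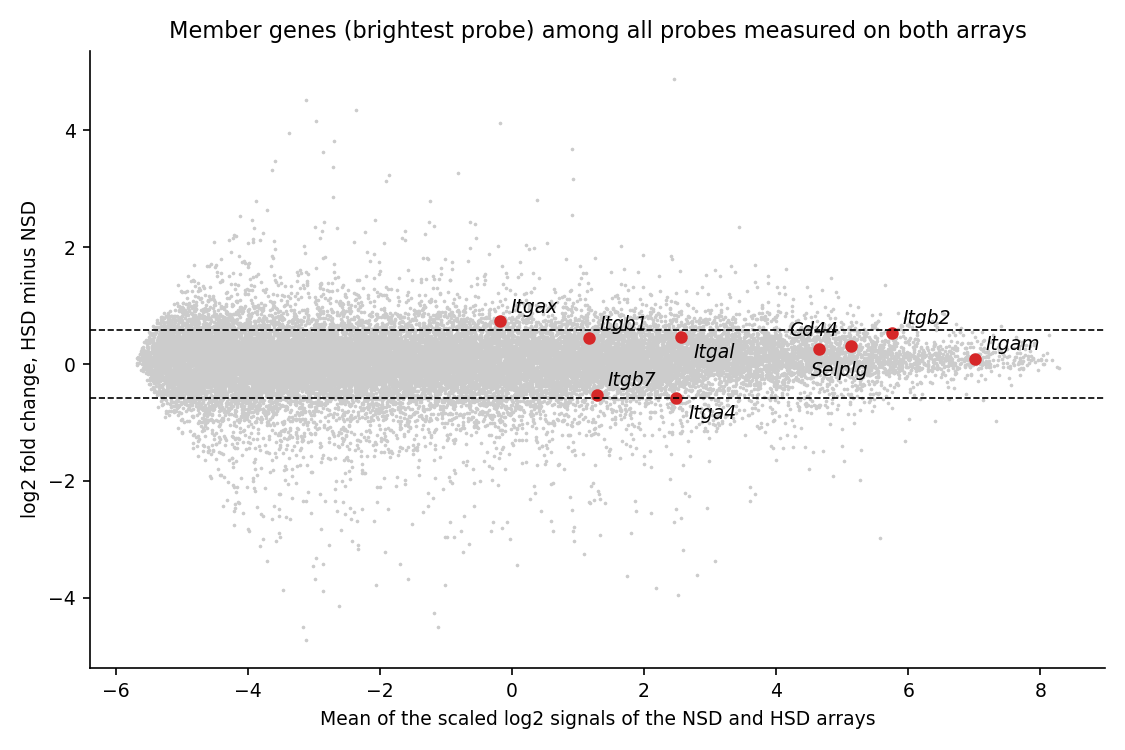
Log2 fold change (HSD minus NSD) against the mean of the scaled log2 signals for the 27236 probes that stood well above background under both diets (grey), with the brightest probe of each member gene in red. Dashed lines mark 1.5-fold. The members lie in the upper range of signal and, apart from Itgax and Itga4, between the lines.

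Over all members, 13 probes had log2 fold changes above 0 and 5 below, with a median of 0.31, beside a median of 0.06 and 56.5% above 0 over the 27236 probes. The median size of the log2 fold change without its sign was 0.45 for the members and 0.26 over all probes. Of the 18 member probes, 10 differed by more than 2 times their error, a larger share than the 27.4% over the 27236 probes. These shares are not of like probes. Dim probes can carry larger errors, such as 0.29 for the dim probe of Itga4, and the members' brightest probes lie in the upper range of signal. The spread between spots of the same probe, known from 289 probes printed in several spots, was smaller than the software's error, with a median SD of 0.082 on the log2 scale.

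**Figure D4:**
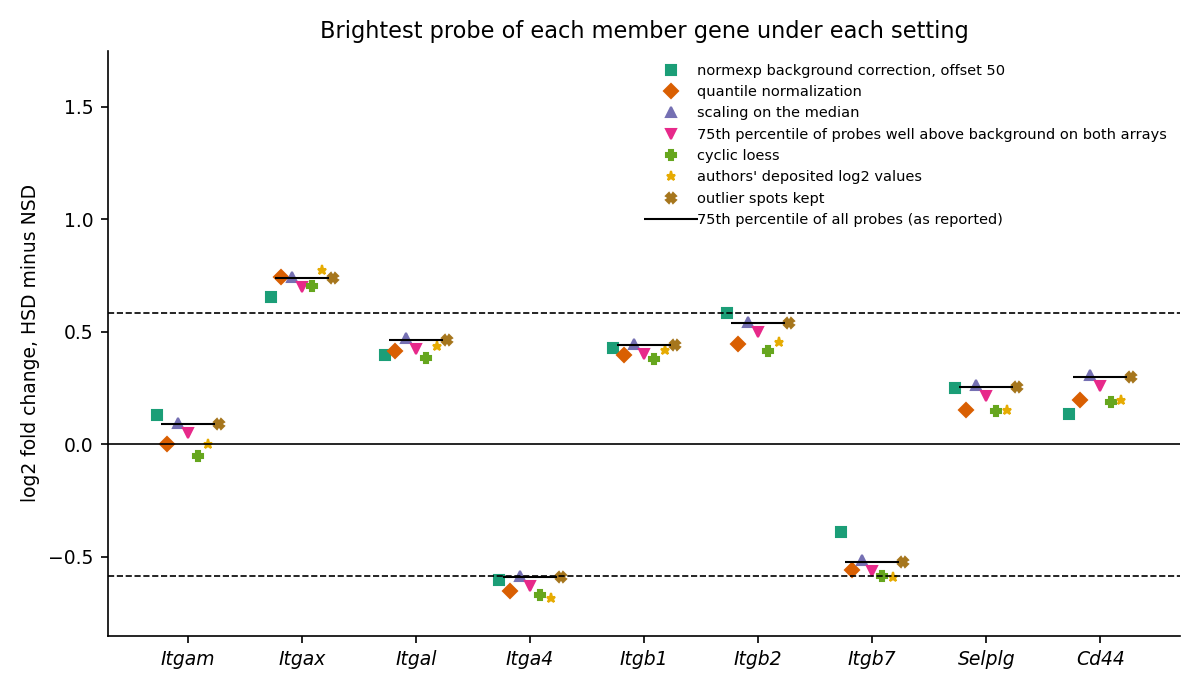
Log2 fold change (HSD minus NSD) of the brightest probe of each member gene as reported (black bars) and under 7 other settings of background correction, scaling or flags (symbols). Dashed lines mark 1.5-fold. Itgax stays above the upper line under every setting shown, Itga4 lies at or past the lower line, and the brightest Itgam probe straddles 0.

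The members were read beside lists of related adhesion genes. Of 13 other integrin subunits with a usable probe, none rose and 3 fell by 1.5-fold or more, and the median log2 fold change was 0.14. Itgb5, a partner of the alpha-v chain, fell from 604 to 190 units (log2 fold change −1.56), Itga6, a laminin receptor chain, from 475 to 205 (−1.10), and Itga2b, the platelet fibrinogen receptor chain, from 13.9 to 6.94 (−0.89, or −0.05 with the normexp correction). Of 32 genes of integrin activation and linkage to actin, 3 were higher and 1 lower by this measure, with a median of 0.21. Vcl, which encodes vinculin, rose from 345 to 674 units (log2 fold change 1.08) and Stk4, a kinase required for LFA-1 function in lymphocytes, from 917 to 1339 (0.66). Parvb, a partner of integrin-linked kinase, went from 18.3 to 11.2 (−0.59, or −0.04 with the normexp correction). Tln1 and Fermt3, which encode the talin and kindlin that open leukocyte integrins, had log2 fold changes of 0.38 and −0.15.

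Of 17 integrin ligands, 7 rose and 1 fell by 1.5-fold or more, and the median was 0.47. With the normexp correction 3 rose and 1 fell, and the median was 0.25. The fibrinogen chains, whose product is a ligand of Mac-1, stood out in size. Fgb rose from 10.4 to 134 units (log2 fold change 3.81, or 1.48 with the normexp correction) and Fga from 5.73 to 17.0 (1.69, or 0.35 with that correction). Fgg, named after its value was seen, was not well above background under NSD and was at least 23.8-fold higher under HSD, at 101 units, a log2 bound of 4.57 that became a log2 fold change of 1.53 with that correction. F11r, the junctional ligand of LFA-1, rose from 74.0 to 142 (1.05), and Thbs1, encoding thrombospondin 1, fell from 600 to 79.7 (−2.80). Icam1 and Vcam1, the ligands of LFA-1 and VLA-4, were not past 1.5-fold, with log2 fold changes of 0.36 and 0.03, the latter −0.01 with scaling on probes measured under both diets.

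Of 15 genes of selectins and of the synthesis of their ligands, 2 rose and none fell by 1.5-fold or more, and the median was 0.24. With the normexp correction 1 rose. C1galt1, which extends the sugar chains of PSGL-1, rose from 191 to 303 units (log2 fold change 0.78) and St3gal6, a sialyltransferase, from 314 to 454 (0.65, or 0.45 with the normexp correction). Selp, which encodes P-selectin, gave 130 and 103 units (−0.21), while Sele was near background under both diets. Of 20 genes of hyaluronan metabolism and CD44 partners, 2 were higher and 3 lower, with a median of 0.14, and with the normexp correction none was higher and 1 lower. Has1, a hyaluronan synthase, rose from 14.3 to 21.9 (0.73, or 0.25 with the normexp correction) and Vcan, a hyaluronan-binding proteoglycan, from 374 to 550 (0.67, or 0.56 with that correction). Hyal1, a hyaluronidase, fell from 22.9 to 5.67 units (−1.90, or −0.33 with the normexp correction), Mmp14, a protease that cleaves CD44, from 141 to 55.7 (−1.22), and Stab1, a scavenger receptor of macrophages, from 655 to 396 (−0.61, or −0.54). Of 19 other adhesion molecules, 1 was higher and 3 were lower, with a median of −0.10. With the normexp correction 1 was higher and 2 lower, with a median of 0.03. Cd9, a tetraspanin, rose from 17217 to 25761 (0.70, or 0.56 with cyclic loess). Siglec1, a sialic acid receptor of macrophages, fell from 48.6 to 11.8 (−1.92, or −0.47 with the normexp correction), Cd34 from 141 to 66.4 (−0.97) and Cd48 from 1465 to 726 (−0.90). The median over all 16312 usable genes was 0.05.

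**Figure D5:**
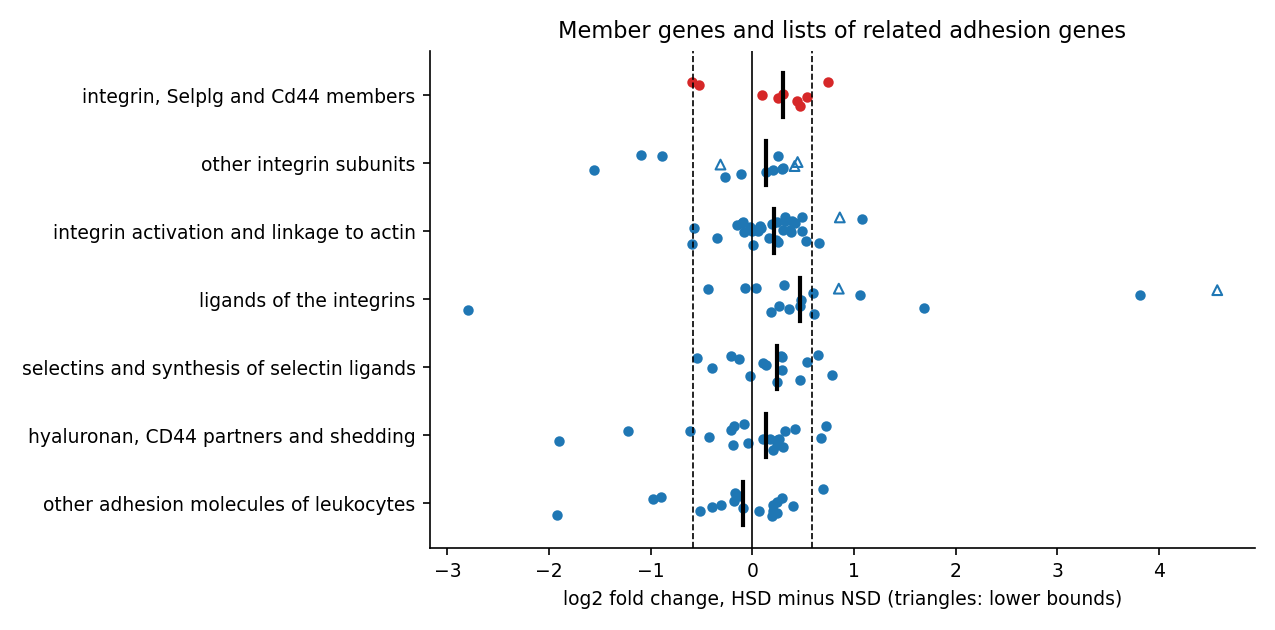
Log2 fold change (HSD minus NSD) of the 9 member genes (red, brightest probe) and of the usable genes of 6 lists of related adhesion genes (blue). Open triangles are lower bounds of genes dim on 1 array, black bars medians and dashed lines 1.5-fold. The fibrinogen genes lie furthest to the right among the ligands and Thbs1 furthest to the left.

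Genes that mark several cell types were measured beside these adhesion molecules. Ly6c1, the monocytic marker, gave 51811 and 48478 units under NSD and HSD, and neutrophil genes were bright as well, such as S100a8 at 57914 and 56478. Summed signals are given before scaling between the arrays, whereas counts past 1.5-fold use scaled values. The summed signal of 14 neutrophil genes was 439816 and 437673, and 1 of them fell by 1.5-fold or more while none rose. That of 11 monocyte genes was 169806 and 173330, or 135551 and 123620 without Chil3, the brightest of them under HSD. As reported, 3 of these genes were higher and 1 lower, or 2 and 1 with the normexp correction. The higher ones as reported were Cx3cr1, Vcan and Chil3, with log2 fold changes of 0.78, 0.67 and 0.65. The lower one was Ccr2, which fell from 259 to 139 (−0.78). Of 12 usable macrophage genes, 7 fell by 1.5-fold or more and none rose, and the summed signal of the 13 with a probe went from 29481 to 17758. The median log2 fold change of the 12 was −0.98, or −0.57 with the normexp correction, with 10 genes below 0 and 2 above. Adgre1 and Csf1r, at −0.55 and −0.37, were among the smaller falls. The largest was that of Mrc1, from 134 to 5.49 units (−4.50, or −1.56 with the normexp correction). Trem2 fell from 3348 to 669 (−2.21, or −2.01 with that correction). Of 15 usable T and NK cell genes, whose cells carry Itga4, Itgb7 and Itgal, 1 was higher and 1 lower, and the summed signal of the 16 with a probe was 3260 and 3673. Cd3e fell from 115 to 49.8 units (log2 fold change −1.09), the brighter Cd3d gave 1501 and 1871 (0.43), and Il2rb rose from 15.9 to 27.3 (0.89, or 0.24 with the normexp correction). Of 10 usable dendritic cell genes, whose cells carry Itgax, 1 was higher and 3 were lower, or none and 1 with the normexp correction. Flt3 gave 48.7 and 36.6 units, and the summed signal of the 11 with a probe was 16006 and 14315. Most of this sum came from Siglech, at 13705 and 13214 units, and without it the sum was 2301 and 1101. Ly6g, Ly6c2 and Itgae could not be matched to a probe and were not analysed here. The part of these cell types in the values of Itga4, Itgb7 and Itgax was not tested.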

How the data were processed

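RNA of pooled tumour M-MDSCs was hybridised to 1 Agilent Mouse GE v2 array per diet. The authors deposited scanner output in which the processed signal, an intensity, had been background-subtracted and corrected for spatial trends by Feature Extraction 11.0.1.1, with no normalization between arrays. They also deposited log2 values normalized with GeneSpring, by a method not given in the sources used here. The sorted values of the columns lay within 0.01 of each other for 99.7% of the rows, as quantile normalization gives.

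Control spots and outlier spots were left out, spots of a probe were averaged on the log2 scale, and each array was scaled by its own 75th percentile. Probes counted as well above background when 50% or more of their spots did. A probe dim on 1 array had a lower bound as its fold change, taken against the lowest signal well above background (4.61 units for NSD, 4.39 for HSD). Transcript identifiers were matched to RefSeq (GRCm38.p6), which named 27223 probes (69.1%). The array's design used an older assembly, so no probe coordinates are given, and the promoter windows carry those of GRCm38.p6. The brightest probe stood for a gene, and all probes of members are given. Of the related lists, Selp, Sele, Icam1, Vcam1 and the 3 largest rises and 3 largest falls past 1.5-fold on both arrays were named, along with defining cell type markers. Some genes that this rule would name are not reported here. Others, such as Tln1, Fermt3, Fgg, Mrc1 and Trem2, were chosen after their values were seen. The members and lists were chosen with earlier results of these data known. No test was run, since each diet has 1 array. Of the lists of cell type markers, those of B cells, carcinoma, fibroblasts, endothelium, platelets and erythroid cells are given in the closing section.

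Alternatives were normexp correction with an offset of 50 on the median spot signal, quantile normalization, scaling on the median or on the 75th percentile of probes measured on both arrays, cyclic loess, the authors' log2 values, outlier spots kept, other filters on dim probes, a limit of 2-fold, counts by gene, and a gene's value as the median of its probes. Python 3.11.15, numpy 2.4.6, pandas 2.3.3, matplotlib 3.10.9, R 4.3.3 and limma 3.58.1 were used.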

Additional observations from a re-analysis of the deposited data

How the results depend on the processing

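Itgax and Itga4 were the genes counted past 1.5-fold, and Itga4 lies close enough to the limit that settings decide its call. The count of lower member probes, 1 as reported, was 0 with scaling on the median and 2 with the authors' deposited log2 values, which added Itgb7. With a 2-fold threshold 0 member probes were higher and 0 lower, and 793 of all probes were higher and 1039 lower. Over all probes, 3030 higher and 2639 lower as reported, the counts were 961 and 923 with the normexp correction, and 6010 were higher without a filter on dim probes. The other settings left the member counts as they were. The cause was not tested. The brightest probe of Itgam was −0.05 with cyclic loess and the dim probe of Itga4 0.12 with the normexp correction, against −0.08 as reported, and the other members kept the sign of their brightest probe under the 7 settings that change values. With the median over its probes, Selplg had a log2 fold change of 0.02. List medians of the integrin activation genes lay between 0.11 and 0.22 and those of the ligands between 0.25 and 0.48, and the list of other adhesion molecules changed sign, with medians between −0.14 and 0.11. No paired analysis was possible because each diet has 1 array. With 1 array per diet and 1 spot per member probe, precision is limited by how few arrays there are.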

Other observations

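Markers of further cell types were measured in the pooled RNA, and the source of their transcripts was not tested. Their summed signals are likewise given before scaling between the arrays. Of 11 B cell and plasma cell genes, 9 had log2 fold changes above 0, with a median of 0.42 and a summed signal of 8677 units under NSD and 10972 under HSD, and 1, Jchain, was at least 1.5-fold higher, at 1205 and 2166 units (log2 fold change 0.96). Of 11 usable platelet and megakaryocyte genes, 5 were at least 1.5-fold lower and none higher, or 1 and none with the normexp correction, with a summed signal of 1823 and 631 units over the 12 with a probe. Pf4, the platelet chemokine also made by macrophages, fell from 1332 to 245 units (log2 fold change −2.33), and the median of the list was −0.46, or −0.05 with the normexp correction.

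Of 12 usable carcinoma cell genes, 4 were at least 1.5-fold higher and none lower, and none passed in either direction with the normexp correction, with a summed signal of 54217 and 62963 units over 13 genes, most of it from Lcn2, which neutrophils also express. Epcam gave 14.5 and 21.8 units (log2 fold change 0.70, or 0.23 with the normexp correction). Of 8 usable fibroblast genes, 2 were higher and 3 lower, or 1 and none with the normexp correction, with a median of −0.32 and a summed signal of 1599 and 6011 units over 11 genes. Acta2, smooth muscle actin, rose from 1206 to 5660 (log2 fold change 2.34) and carried the rise of the sum, which without it was 393 and 351, while Col1a1 gave 89.1 and 77.2 units. Of 8 usable endothelial genes none passed 1.5-fold, with summed signals of 567 and 575 units over 11 genes, and Cdh5 read 5.31 units under NSD and was not well above background under HSD. Of 6 usable erythroid genes none passed 1.5-fold, with summed signals of 28001 and 24715 units over 7 genes.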
